A study of Homo sapiens with 8 samples.

Results

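The 4 libraries compared here, of 8 in the series, were prepared from PM10-exposed hIECs (human intestinal epithelial cells grown as a 2D culture) with or without the inflammatory cytokines IFNγ and TNFα. All libraries came from 1 line, since the hIECs were made from H9 human embryonic stem cells, a long-established line. Members were chosen by their labels alone, as the 2 libraries of inflamed hIECs with PM10 and the 2 libraries of normal hIECs with PM10. Inflamed hIECs received 50 ng/ml IFNγ together with 50 ng/ml TNFα for 10 days, and normal hIECs received neither. Both groups received PM10, the inhalable fraction of airborne particulate matter, at 100 μg/ml during the last 7 days, and the labels give 10 days of treatment for every library. The question was which genes the cytokines changed in cells that also carried PM10. The cytokines were always given as a pair, so the effect of IFNγ and that of TNFα cannot be told apart. The 2 libraries of normal hIECs and the 2 of inflamed hIECs without PM10 entered only the last comparison below.

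Expression was measured by RNA-seq and given as FPKM, in which the fragments of a gene are divided by transcript length and by the mapped fragments of the library. Of 60558 genes in the files, 19879 were above 0 in at least 1 of the 4 libraries, and the 13691 genes that reached 1 FPKM in 2 or more of them were tested. No read counts are behind these values, so the depth had to be read from the lowest value above 0, which was 0.201 to 0.217 FPKM. If that value stands for a mean depth of 1, then 1 FPKM was a mean depth of 4.61 to 4.98 in the 4 libraries, and a gene listed at 0 lay under a depth of 1. Replicates were close, with a median SD between the 2 libraries of 0.0511 on the log2(FPKM + 1) scale in normal hIECs with PM10 and 0.0482 in inflamed hIECs with PM10. Mitochondrially encoded genes took 20.4% and 20.2% of the FPKM sum in normal hIECs with PM10 and 15.5% and 15.7% in inflamed hIECs with PM10. This share moved with the cytokines, and its part in the results was not tested. The labels do not say that the libraries came from separate cultures, so the p-values measure only the spread between these libraries, which may be technical.

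The label of intestinal epithelium was checked against marker genes. Of 28 intestinal epithelial markers, 17 were listed at 0 in all 4 libraries, among them CDX2, the intestinal master regulator, MUC2 of goblet cells, LYZ of Paneth cells, CHGA of enteroendocrine cells and VIL1 of the brush border. The epithelial adhesion gene EPCAM was between 0.273 and 0.553 FPKM, and CDH1, which encodes E-cadherin, was at 0 in 3 libraries and at 0.221 FPKM in the other. The simple keratin KRT8 was abundant, at 361 and 382 FPKM in normal hIECs with PM10 and 195 and 185 FPKM in inflamed hIECs with PM10. VIM, the intermediate filament gene of mesenchymal cells, was at 733 and 718 FPKM against 834 and 823 FPKM. The 17 mesenchymal markers summed to 3504 FPKM in each normal library with PM10 and to 3091 and 3123 FPKM in the inflamed libraries with PM10. Neuronal markers were present too, at a sum of 427 and 428 FPKM against 214 and 218 FPKM. Of 14 endothelial and immune cell markers, 10 were at 0 in all 4 libraries, and the list summed to 0.490 and 1.01 FPKM in normal hIECs with PM10 and to 1.47 and 2.32 FPKM in inflamed hIECs with PM10. Of 8 pluripotency markers, 5 were at 0 throughout, POU5F1 and NANOG included. The study itself reports CDX2, MUC2, LYZ, CHGA and VIL1 in its 2D hIECs, by quantitative PCR and by immunostaining. The name hIECs is kept here as the label of these cultures, although the RNA-seq of these 4 libraries does not show the defining genes of mature intestinal epithelium.

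IFNγ acts through a receptor that activates the kinases JAK1 and JAK2 and transcription factors of the STAT family, which bind GAS elements, and it induces IRF factors that bind related ISRE elements. TNFα acts through its receptors, TRAF adaptor proteins and the inhibitor-of-κB kinases to release NF-κB, which enters the nucleus and drives genes of inflammation and survival. In the gut the pair of cytokines is known for inducing chemokines, antigen presentation and tryptophan breakdown, and for weakening the epithelial barrier. PM10 carries metals and aromatic hydrocarbons, the latter of which bind the aryl hydrocarbon receptor.

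Most of the genes tested differed between inflamed and normal hIECs with PM10, measured against a spread between replicates that may be technical. limma called 9425 of the 13691 genes at an adjusted p-value under 0.05 (68.8%), of which 3801 were higher with the cytokines (27.8%) and 5624 lower (41.1%). With a difference of at least 1 on the log2(FPKM + 1) scale in addition, termed 2-fold here, 1812 genes were called (13.2%), of which 750 rose (5.48%) and 1062 fell (7.76%). The rises reached further than the falls, since 37 called genes rose and 12 fell by 4 or more on the log2 scale, and 13 rose and 5 fell by 5 or more. Among genes at 0 in both libraries of the other group and at 1 FPKM or more in both libraries of their own, 83 were in inflamed hIECs with PM10 and 127 in normal hIECs with PM10. Of the 1812 genes, 1551 were protein-coding and 190 were lncRNAs. FPKM of bulk cultures cannot tell fewer cells of a type from less RNA per cell, here and in all results that follow.

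The balance of rises and falls depended on the scaling of the libraries. The median log2 difference over all genes tested was -0.10, and 41.4% of the 2-fold calls were rises. Under quantile normalization 885 genes rose and 829 fell 2-fold, so 51.6% were rises, and under median centring 827 rose and 923 fell, or 47.3%. The groups did not overlap for 85.3% of the genes tested, so a lack of overlap is the usual case here and carries little information on a single gene. Counts of called members in the gene lists below are to be read beside the 27.8% higher and 41.1% lower of all genes tested.

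**Figure D1:**
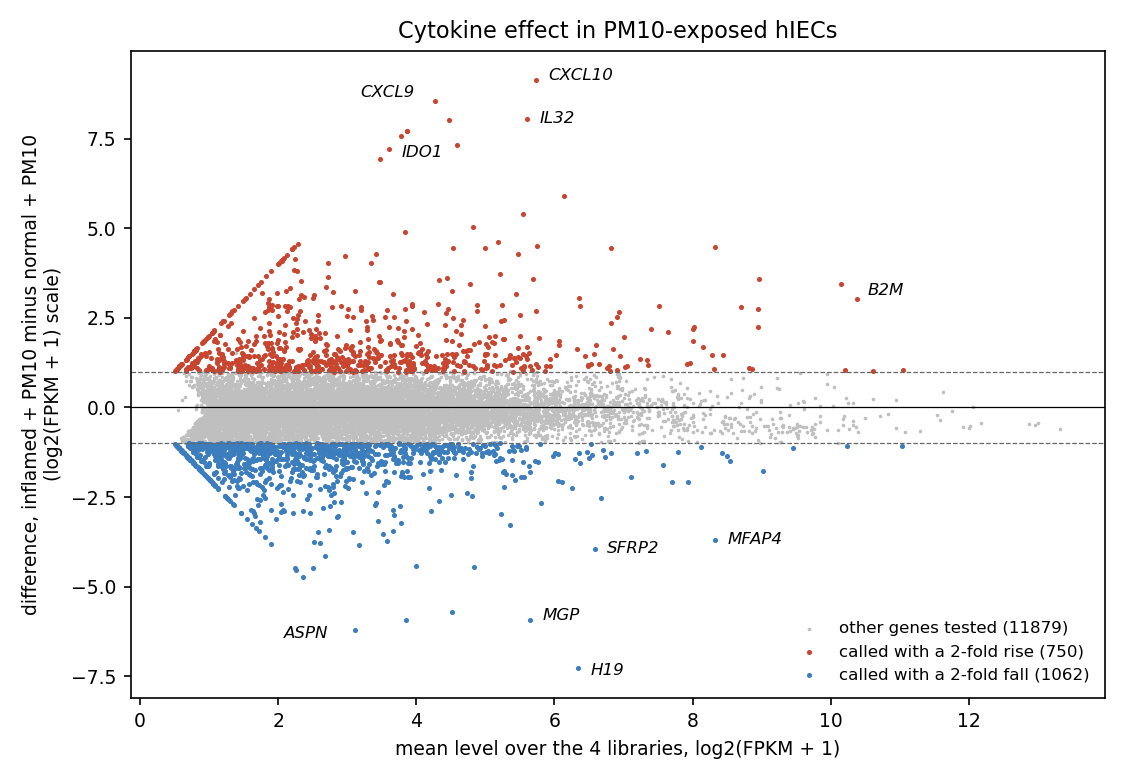
Each point is 1 of the 13691 genes tested, with its mean level over the 4 libraries (log2(FPKM + 1), x axis) against the difference of inflamed hIECs with PM10 minus normal hIECs with PM10 on the same scale (y axis). The 750 genes called with a 2-fold rise are red, the 1062 called with a 2-fold fall are blue, and the dashed lines mark a difference of 1; the straight edges at the left are genes listed at 0 in both libraries of 1 group.

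Chemokines, the secreted proteins that attract leukocytes, rose together. Of 22 chemokine genes 7 were listed at 0 in all 4 libraries, and of the 15 tested 14 rose and 1 fell, against 27.8% higher and 41.1% lower over all genes. All 14 rises were 2-fold. The median log2 difference of the list was 3.81, the highest of all lists, but 2.36 without the 4 members at 0 in 1 group, which is below MHC class I presentation (2.53) and guanylate-binding proteins (2.41) counted in the same way. The widest rises belonged to the ligands of the receptor CXCR3, which draws activated T cells. CXCL10 was at 1.34 and 1.15 FPKM in normal hIECs with PM10 and at 1254 and 1265 FPKM in inflamed hIECs with PM10, a 1012-fold ratio of the mean FPKM and a log2 difference of 9.13 ± 0.052 (SE; adjusted p = 9.37e-07 by limma). CXCL11 was at 0.352 and 0.4004 FPKM against 351 and 357 FPKM, a 942-fold ratio. CXCL9 was listed at 0 in both normal libraries with PM10 and at 373 and 374 FPKM in the inflamed ones. The 3 genes thus went from near or below the detection level to the range of abundant transcripts, with replicates far closer to each other than to the other group.

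Their promoters are shown because these 3 neighbouring genes of chromosome 4, with IFI27 described further on, were the genes with the widest rises among those that overlap no other gene and have an entry in the RefSeq promoter table. The sequences are the stretch upstream of the RefSeq start (GRCh38.p14), read 5′ to 3′ on the strand of the gene, and capitals mark matches on either strand to 3 motifs. GAS was searched as TTC, any 3 bases and GAA, ISRE as GAAA, any 2 bases and GAAA, and NF-κB as GGGA, any 2 bases and TTCC. For IFI27 the bases that an annotated exon covers were left out.
CXCL10 promoter, chr4:76023498-76023747, minus strand: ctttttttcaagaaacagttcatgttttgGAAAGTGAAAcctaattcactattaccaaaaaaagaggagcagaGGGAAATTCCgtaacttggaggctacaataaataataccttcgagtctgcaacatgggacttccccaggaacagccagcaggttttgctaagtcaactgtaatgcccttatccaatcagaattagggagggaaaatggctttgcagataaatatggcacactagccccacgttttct
CXCL9 promoter, chr4:76007510-76007759, minus strand: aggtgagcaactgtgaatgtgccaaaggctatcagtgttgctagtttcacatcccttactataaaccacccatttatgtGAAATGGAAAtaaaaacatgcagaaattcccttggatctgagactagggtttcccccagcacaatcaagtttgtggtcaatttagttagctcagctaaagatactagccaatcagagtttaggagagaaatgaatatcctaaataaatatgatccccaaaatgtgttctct
CXCL11 promoter, chr4:76036071-76036320, minus strand: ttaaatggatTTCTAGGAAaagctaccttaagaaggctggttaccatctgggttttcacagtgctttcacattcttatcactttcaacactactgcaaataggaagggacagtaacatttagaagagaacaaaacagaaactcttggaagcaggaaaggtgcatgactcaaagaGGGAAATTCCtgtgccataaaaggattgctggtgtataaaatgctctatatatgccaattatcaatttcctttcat
IFI27 promoter, chr14:94110486-94110677, plus strand: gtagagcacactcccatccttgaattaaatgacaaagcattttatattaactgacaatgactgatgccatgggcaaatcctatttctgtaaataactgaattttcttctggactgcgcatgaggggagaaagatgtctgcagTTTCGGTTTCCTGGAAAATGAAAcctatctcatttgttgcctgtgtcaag

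CXCL10 held an ISRE match beginning 221 bases before the start and an NF-κB match beginning 177 bases before it. CXCL9 held an ISRE match at 171 bases, and CXCL11 a GAS match at 240 bases and an NF-κB match at 76 bases. IFI27 held a run in which ISRE matches at 108 and 95 bases overlap a GAS match at 101 bases. Over 250 bases before the start, the ISRE letters were found in 10.1% of the 523 matched promoters of genes with a 2-fold rise, in 1.75% of the 687 of genes with a 2-fold fall and in 2.52% of the 9927 of all genes tested. The NF-κB letters were in 4.59%, 0.582% and 1.42% of the same promoters, and the GAS letters in 7.65%, 4.80% and 5.54%. In all 27305 promoters of the RefSeq table, the shares were 3.07% for ISRE, 1.42% for NF-κB and 6.78% for GAS. A match describes the letters and not binding, and no test was run on these shares.

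Chemokines of other receptors rose as well. CCL5, which attracts T cells, was listed at 0 in both normal libraries with PM10 and at 211 FPKM in each inflamed library with PM10. CCL7, which attracts monocytes, rose from 7.68 and 8.44 FPKM to 545 and 544 FPKM, a 67.5-fold ratio. CXCL1, a neutrophil attractant, was at 0 in both normal libraries with PM10 and at 16.4 and 15.8 FPKM with the cytokines. The member that fell was CXCL12, a chemokine that stromal cells make without inflammation, at 636 and 634 FPKM against 441 and 447 FPKM (log2 difference -0.52). CXCL12 was the most abundant chemokine gene in FPKM before the cytokines. After them it was exceeded by CXCL10, CCL7 and the monocyte attractant CCL2, which rose from 66.5 and 67.2 FPKM to 1496 and 1511 FPKM.

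Of 24 other cytokine genes, 8 were listed at 0 throughout and all 12 tested rose 2-fold, with a median log2 difference of 2.54 (2.34 without the 2 members at 0 in 1 group). IL32, a cytokine that induces other inflammatory mediators, rose from 1.79 and 2.22 FPKM to 793 and 797 FPKM, a 397-fold ratio (log2 difference 8.05 ± 0.076). It carried most of the list, whose sum went from 27.5 and 28.3 FPKM to 984 FPKM in each inflamed library with PM10. LIF, a cytokine of the IL6 family, rose from 4.77 and 4.97 FPKM to 69.1 and 67.8 FPKM. EBI3, a subunit shared by IL27 and IL35, rose from 0.788 and 0.564 FPKM to 10.2 and 11.4 FPKM. TNFSF13B, which encodes the B cell survival factor BAFF, was at 0 in both normal libraries with PM10 and at 15.9 and 14.6 FPKM with the cytokines. IL15, a growth factor of NK and T cells, was at 0 against 5.36 and 4.90 FPKM. IL1B was listed at 0 in all 4 libraries and was not tested. Exons of IL32 and LIF overlap exons of other genes, and their reads could not be assigned by strand.

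**Figure D2:**
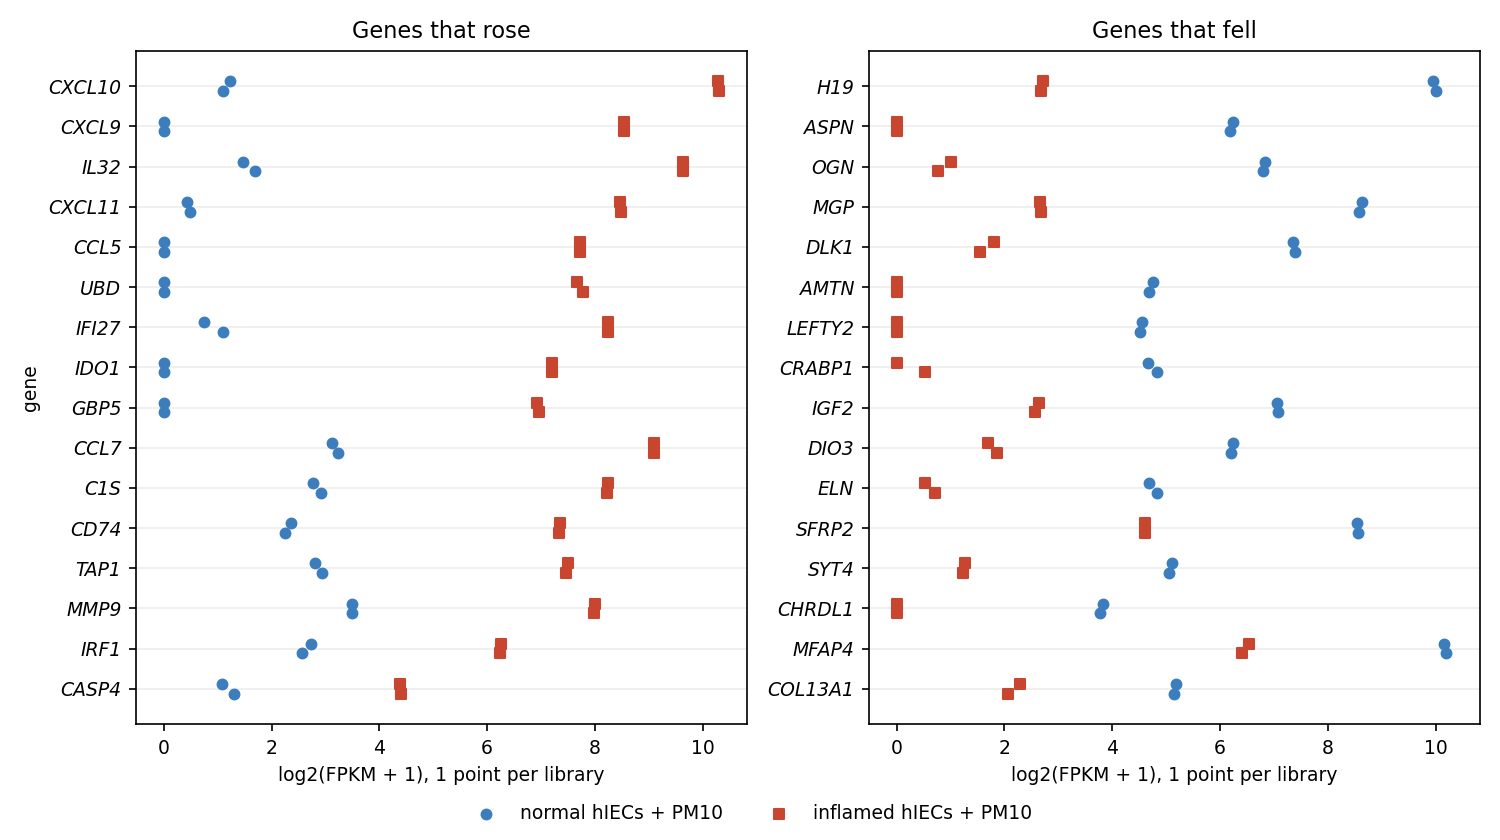
Level of 32 genes in each of the 4 libraries as log2(FPKM + 1), with normal hIECs with PM10 as blue circles and inflamed hIECs with PM10 as red squares, 1 point per library. For every gene drawn the distance between the groups is many times the distance between replicates; CXCL10 lies at 1.34 and 1.15 FPKM against 1254 and 1265 FPKM, and H19 at 995 and 1023 FPKM against 5.58 and 5.38 FPKM.

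Antigen presentation by MHC class I rose as a group. Of 15 genes tested, 14 rose and 13 rose 2-fold, against 5.48% of all genes, with a median log2 difference of 2.52. B2M, the light chain of every class I molecule, rose from 473 and 462 FPKM to 3712 and 3902 FPKM, an 8.15-fold ratio. HLA-B, a heavy chain, rose from 142 FPKM in each normal library with PM10 to 1746 and 1699 FPKM, and HLA-C rose from 154 and 159 FPKM to 1112 and 1096 FPKM. TAP1, a subunit of the peptide transporter, rose 28.0-fold from 6.04 and 6.64 FPKM to 181 and 175 FPKM. NLRC5, the transactivator of class I genes, was at 1.15 and 0.387 FPKM against 13.9 and 12.2 FPKM, a log2 difference of 3.02 ± 0.22 with the widest error of the class I genes named here. The summed level of the 15 genes went from 2209 and 2225 FPKM to 9716 and 9779 FPKM. HLA genes are near-identical in sequence, so the split of reads among them is uncertain.

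The subunits that turn the proteasome into the immunoproteasome, which cuts peptides for class I, rose in 5 of 5 cases and all 2-fold, with a median log2 difference of 2.00. PSMB9, a catalytic subunit, rose from 5.205 and 6.55 FPKM to 149 and 146 FPKM, 25.1-fold. PSMB8, another catalytic subunit, rose 4.14-fold from 21.0 and 22.4 FPKM to 92.3 and 86.9 FPKM, and PSME2, of the PA28 cap, rose 5.19-fold. The constitutive subunits moved far less. Of 14 tested, 10 rose, 1 fell and none passed 2-fold, with a median of 0.22, and the widest rise was that of PSMA6, from 94.0 and 89.5 FPKM to 161 and 168 FPKM. Exons of PSMB8, PSMB9, PSME2, PSMA6, TAP1 and HLA-B overlap other genes.

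MHC class II genes were more mixed. Of 14 tested, 10 rose, 3 fell and 4 rose 2-fold, with a median log2 difference of 0.84. CD74, the invariant chain, rose from 4.12 and 3.78 FPKM to 163 and 159.7 FPKM, a 40.9-fold ratio. HLA-DRA, the alpha chain of HLA-DR, rose from 0.576 and 0.644 FPKM to 10.7 and 10.1 FPKM, and HLA-DRB5 rose from 7.27 and 7.499 FPKM to 15.3 and 15.2 FPKM. CTSS, a protease that trims the invariant chain, was at 0 in both normal libraries with PM10 and at 16.3 and 15.95 FPKM with the cytokines. IFI30, a lysosomal thiol reductase whose exons overlap another gene, was at 0.932 and 1.02 FPKM against 8.47 and 27.3 FPKM. Its inflamed libraries with PM10 differed over 3 times from each other, and without either normal library with PM10 its call was lost (adjusted p = 0.0766 and 0.0748 by limma).

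The guanylate-binding proteins, GTPases that attack vacuoles holding pathogens, rose in 5 of 5 genes tested of 7, all 2-fold. GBP5 was listed at 0 in both normal libraries with PM10 and at 120.4 and 124 FPKM in the inflamed ones, and GBP4 at 0 against 16.5 and 15.9 FPKM. GBP1 already stood at 27.4 and 27.5 FPKM and rose to 235 and 237 FPKM, 8.59-fold. The apolipoprotein L genes, which encode lipid-binding proteins of innate immunity, rose in 5 of 5 and 2-fold in 4. APOL1 was at 0 against 20.1 and 20.5 FPKM, APOL3 at 0 against 16.4 and 16.7 FPKM, and APOL2 rose from 17.6 and 18.3 FPKM to 52.1 and 52.3 FPKM. Both families hold closely related copies, among which reads may be split, and exons of GBP4 and GBP5 overlap other genes.

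Signaling genes of the interferon pathway did not move as 1 group. Of 29 tested, 15 rose and 10 fell, and 6 rose 2-fold, with a median log2 difference of 0.25. IRF1, an early factor of the response to IFNγ, rose from 5.61 and 4.94 FPKM to 76.0 and 74.5 FPKM, and IRF8 rose from 0.707 and 0.548 FPKM to 25.8 and 25.2 FPKM. BATF2, a leucine zipper factor, was at 0 against 14.6 and 15.2 FPKM. SOCS1, the feedback inhibitor of JAK kinases, rose 4.21-fold from 1.71 and 1.99 FPKM. Members of the same families differed in direction. STAT5A rose from 1.07 and 1.42 FPKM to 2.86 and 2.91 FPKM, while STAT5B fell from 7.97 and 8.53 FPKM to 6.50 and 6.14 FPKM (log2 difference -0.34 ± 0.062). The STAT5B call was lost without replicate 2 of either group (adjusted p = 0.0584 and 0.055 by limma). IRF7 rose 3.04-fold from 1.08 and 1.39 FPKM. IRF9, which joins STAT factors in a complex, was at 6.49 and 7.24 FPKM against 19.6 and 10.9 FPKM, and its call was lost without either normal library with PM10 (adjusted p = 0.179 and 0.144). Exons of STAT5A, STAT5B, IRF1 and IRF9 overlap other genes.

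Antiviral interferon-stimulated genes rose almost throughout. Of 38 tested, 37 rose, 30 of them 2-fold, and 1 fell, with a median log2 difference of 1.84. IFI27, a mitochondrial protein of the interferon response, rose from 0.682 and 1.13 FPKM to 303 and 301 FPKM, a 333-fold ratio (log2 difference 7.32 ± 0.12). XAF1, which antagonises the inhibitor of apoptosis XIAP, was at 0 against 22.7 and 22.8 FPKM, and OAS2, which makes the RNase L activator, at 0 against 12.6 and 13.2 FPKM. IFIT3 rose 10.9-fold from 6.45 and 6.38 FPKM, and TRIM22, a restriction factor, rose 8.36-fold from 6.41 and 6.24 FPKM. The member that fell was IFITM2, a membrane protein that blocks viral fusion (log2 difference -0.55). Exons of XAF1, IFIT3 and TRIM22 overlap other genes.

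UBD, the ubiquitin-like modifier FAT10 that responds to the cytokine pair, was listed at 0 in both normal libraries with PM10 and at 203 and 219.7 FPKM in the inflamed ones. OR2I1P, which has the name of an olfactory receptor pseudogene and is listed as protein-coding, was at 0 against 189 and 188 FPKM. Exons of the 2 genes overlap each other and those of GABBR1, so without strand information the 2 rises cannot be counted as separate.

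The kynurenine pathway breaks down tryptophan, and its list here also held WARS, which is not an enzyme of that pathway. Of 8 genes of the list tested, 3 rose, 3 fell, and the median was 0.00. The rises were IDO1, KYNU and WARS. IDO1, the entry enzyme, was listed at 0 in both normal libraries with PM10 and at 147 FPKM in each inflamed library with PM10. WARS, the tryptophan tRNA synthetase and itself an interferon target, rose from 118 FPKM in both libraries to 574 and 554 FPKM, 4.79-fold. KYNU, which acts further along, was at 0 against 2.58 and 6.21 FPKM, and its call was lost without either normal library with PM10 (adjusted p = 0.0550 and 0.0559 by limma). The genes that fell (AFMID, QPRT and KYAT3) lay between -0.48 and -0.22 on the log2 scale.

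Complement genes rose at the start of the classical pathway. C1S, a protease of the first complex, rose from 5.86 and 6.54 FPKM to 302 and 299 FPKM, 48.5-fold, and its partner C1R rose 9.57-fold from 13.97 and 13.03 FPKM to 129 and 129.9 FPKM. C3, the central component, was at 0 against 8.85 and 8.81 FPKM. CFB, a protease of the alternative pathway, was at 0 and 0.286 FPKM against 2.19 and 2.38 FPKM. CFI, which inactivates C3b, fell from 131 and 123 FPKM to 48.5 and 54.6 FPKM. In all, 8 of 12 genes tested rose, 6 of them 2-fold, and 1 fell, with a median of 0.93. Exons of all 5 genes named, and of IDO1, KYNU, KYAT3 and WARS, overlap other genes.

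Of 33 genes of NF-κB and TNF signaling, 23 rose, 13 of them 2-fold, and 5 fell, with a median log2 difference of 0.47. The rises included the inhibitors that end the signal. NFKBIA, the inhibitor of NF-κB, rose from 19.2 and 18.3 FPKM to 73.6 and 72.6 FPKM, and TNFAIP3, the ubiquitin-editing enzyme A20, rose from 4.76 and 4.82 FPKM to 37.6 and 42.4 FPKM. SOD2, the mitochondrial superoxide dismutase and an NF-κB target, rose 12.3-fold from 7.23 and 7.36 FPKM to 86.2 and 93.3 FPKM. BIRC3, an inhibitor of apoptosis, was at 0 against 5.98 and 6.202 FPKM. Of the TRAF adaptors, TRAF1 was at 0.243 and 0 FPKM against 3.17 and 2.97 FPKM, TRAF2 rose from 6.27 and 6.59 FPKM to 12.2 and 11.1 FPKM, and TRAF3 rose from 4.33 and 4.65 FPKM to 8.34 and 9.39 FPKM. Exons of TNFAIP3 and BIRC3 overlap other genes.

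All 10 adhesion and checkpoint genes tested rose, 6 of them 2-fold, with a median of 1.86. ICAM1, the ligand of leukocyte integrins, rose from 3.72 and 4.19 FPKM to 109 and 106 FPKM, 27.3-fold, although its exons overlap other genes. The ligands of the receptor PD-1 both rose, CD274 (PD-L1) from 1.12 and 1.102 FPKM to 9.55 and 10.2 FPKM and PDCD1LG2 (PD-L2) from 0.334 and 0.268 FPKM to 11.4 and 10.5 FPKM. They differed in level before the cytokines and were close to each other after them.

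Among genes of apoptosis and pyroptosis, 18 of 25 rose, 9 of them 2-fold, and 2 fell, with a median of 0.74. Genes of inflammatory cell death had the widest rises. CASP4, which senses lipopolysaccharide, rose from 1.103 and 1.47 FPKM to 20.02 and 20.3 FPKM, and CASP1, which processes IL1 family cytokines, was at 0 and 0.255 FPKM against 9.06 and 9.43 FPKM. AIM2, a DNA sensor, rose from 0.277 and 0.355 FPKM to 8.66 and 9.31 FPKM. The death receptor FAS rose 6.61-fold from 1.81 and 1.36 FPKM, and PMAIP1, the BH3-only protein NOXA, rose 5.57-fold. In the BCL2 family, BAX rose from 56.9 and 58.1 FPKM to 86.8 and 85.4 FPKM and BCL2 fell from 1.41 and 1.75 FPKM to 0.271 and 0.297 FPKM. Exons of AIM2 and FAS overlap other genes. Of 18 genes that the study names for its cytokine response, 17 were tested, 14 rose and 2 fell, and the 2 that fell were STAT5B and BCL2; the study chose them on these samples, so their directions are no independent evidence.

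PM10 was present on both sides of this comparison, so genes of the response to aromatic hydrocarbons and oxidants describe what the cytokines added. Of 8 aryl hydrocarbon receptor targets tested, 5 rose and 2 fell. CYP1B1, a P450 enzyme that oxidises aromatic hydrocarbons, rose from 65.7 and 62.8 FPKM to 254 FPKM in each inflamed library with PM10, 3.96-fold. AHR, the receptor, rose from 2.59 and 2.15 FPKM to 5.91 and 5.88 FPKM, and its repressor TIPARP from 5.15 and 5.13 FPKM to 8.13 and 8.11 FPKM. SERPINB2 fell from 3.37 and 3.17 FPKM to 1.23 and 1.12 FPKM. NQO1, a quinone reductase controlled by AHR and NRF2, rose from 13.2 and 11.5 FPKM to 43.2 and 44.9 FPKM. Of 27 genes of the oxidative stress response, 18 rose and 3 fell, with a median of 0.25. OSGIN1 rose from 0.886 and 1.04 FPKM to 10.4 and 9.72 FPKM, PRDX1, a peroxiredoxin, rose 2.36-fold to 385 and 376 FPKM, and FTH1, the ferritin heavy chain, rose 2.04-fold from 1115 and 1085 FPKM. Exons of CYP1B1, AHR, SERPINB2, NQO1, OSGIN1, PRDX1 and FTH1 overlap other genes.

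Metallothioneins and zinc transporters rose in 8 of 8 genes tested, 4 of them 2-fold. MT2A rose from 65.2 and 70.0 FPKM to 497 and 469.6 FPKM, 7.15-fold, and MT1E from 0.728 and 0.671 FPKM to 13.7 and 14.2 FPKM. SLC39A14, a zinc and iron importer, rose from 6.91 and 7.24 FPKM to 30.7 and 32.8 FPKM. Metallothionein copies are near-identical, so reads may be shared among them.

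**Figure D3:**
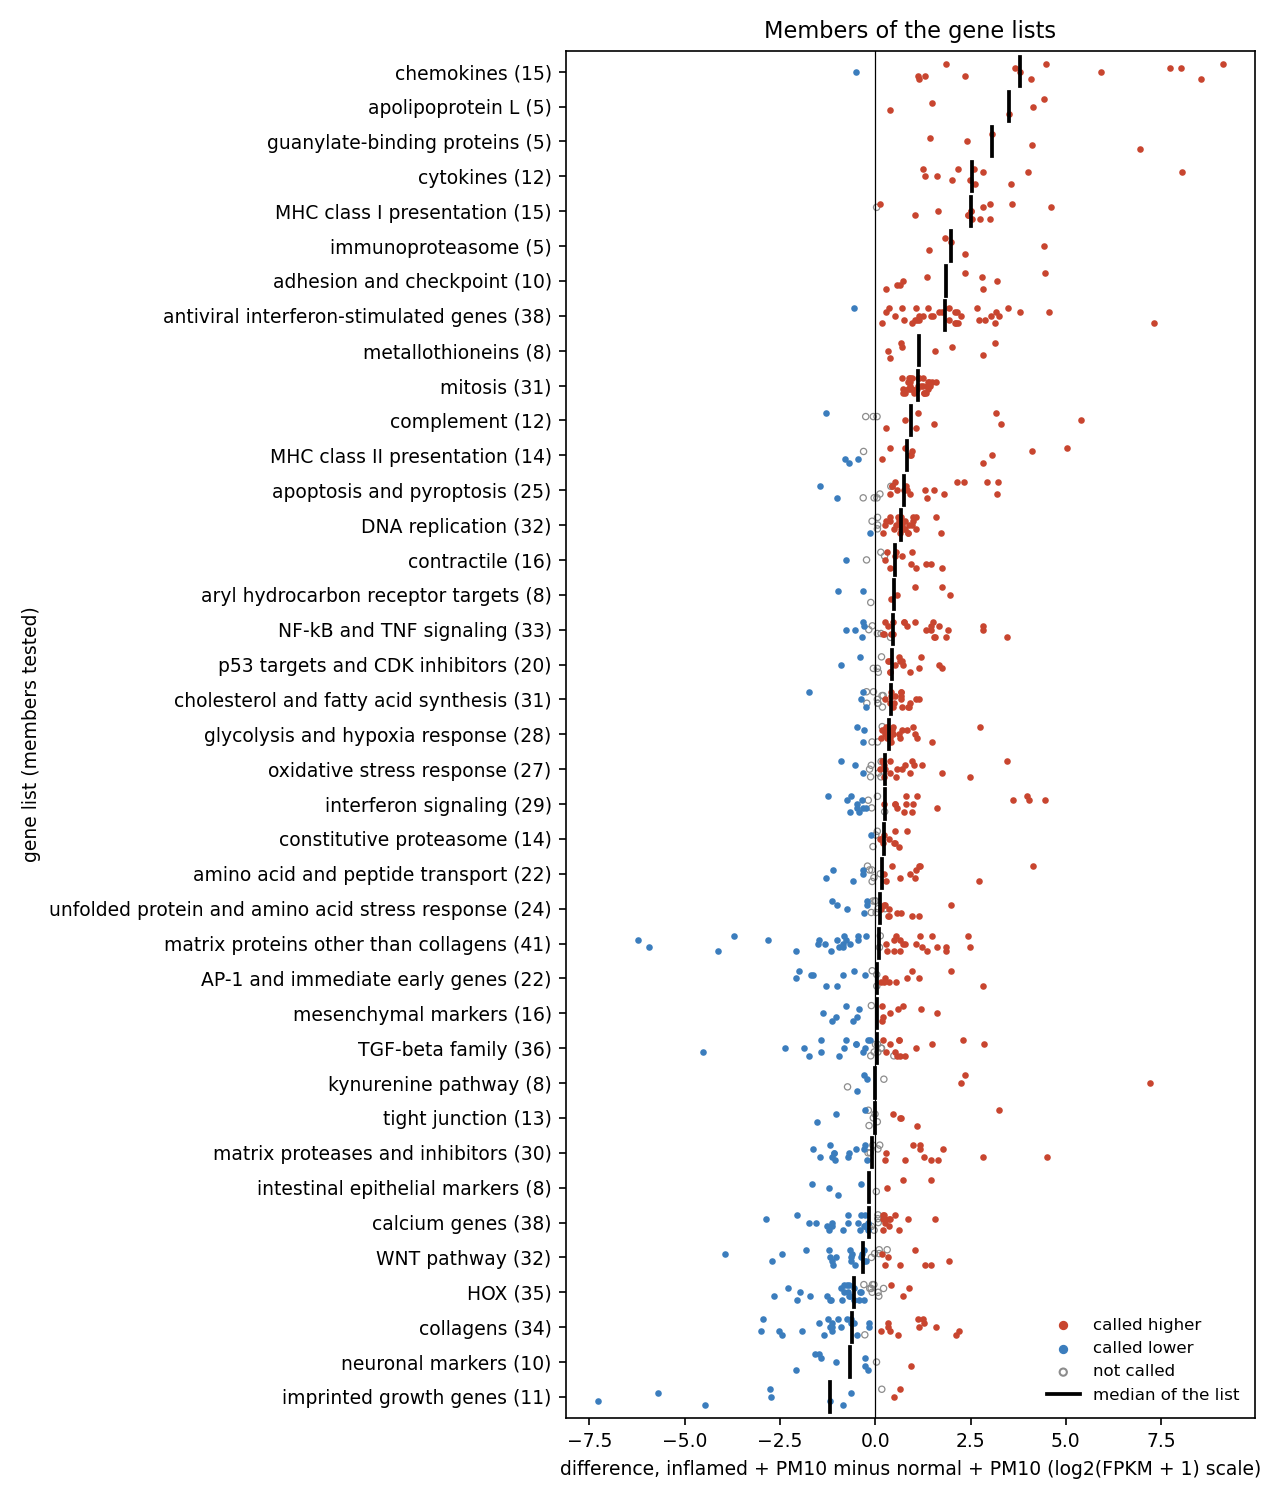
Each point is a tested member of a gene list, placed by its difference of inflamed hIECs with PM10 minus normal hIECs with PM10 (log2(FPKM + 1) scale, x axis); red points were called higher, blue points lower, open points were not called, and black bars are list medians. Lists of the cytokine response lie to the right, chemokines with a median of 3.81, and imprinted growth genes lie farthest left with a median of -1.19.

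Genes of the extracellular matrix moved in both directions. Of 34 collagen genes tested, 21 fell, 12 of them 2-fold, and 12 rose, 7 of them 2-fold, beside 41.1% lower and 27.8% higher over all genes tested, with a median log2 difference of -0.60 (-0.48 without the 3 members at 0 in 1 group). COL13A1, a transmembrane collagen, fell from 35.3 and 34.7 FPKM to 3.89 and 3.20 FPKM, 9.86-fold lower. COL14A1, which binds fibrils, fell from 6.97 and 7.02 FPKM to 0.475 and 0.459 FPKM, and COL21A1 went from 6.83 and 6.49 FPKM to 0 in both libraries. COL3A1, a fibrillar collagen, fell from 1035 and 1032 FPKM to 475 and 466 FPKM. COL4A1, of basement membranes, rose from 79.6 and 76.8 FPKM to 362 and 357 FPKM, 4.598-fold. The summed level of the 43 collagen genes was 3549 and 3593 FPKM against 3302 and 3367 FPKM, so the list changed far more in its makeup than in its sum.

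Of 41 other matrix proteins, 19 were higher and 20 lower, beside 27.8% and 41.1% over all genes tested. Their widest changes were falls. ASPN, a small leucine-rich proteoglycan that binds collagen, was at 74.4 and 72.0 FPKM in normal hIECs with PM10 and at 0 in both inflamed libraries with PM10. OGN, of the same family, fell from 114 and 111 FPKM to 1.01 and 0.712 FPKM, 131-fold lower. MGP, an inhibitor of calcification that is outside this list, fell from 395 and 382 FPKM to 5.36 and 5.44 FPKM, 71.9-fold lower. ELN, which encodes elastin, fell from 24.6 and 27.4 FPKM to 0.441 and 0.629 FPKM and MFAP4, a microfibril protein, fell from 1143 and 1173 FPKM to 92.5 and 83.9 FPKM. AMTN, an enamel matrix protein also outside this list, was at 26.0 and 24.8 FPKM against 0 in both libraries. LUM, another leucine-rich proteoglycan, went the other way and rose from 45.2 and 44.3 FPKM to 141 and 139 FPKM.

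Of 30 matrix proteases and their inhibitors, 12 were higher and 13 lower, beside 27.8% and 41.1% over all genes tested. MMP9, the gelatinase that degrades basement membrane, rose from 10.3 FPKM in both libraries to 256 and 254 FPKM, 24.7-fold. PLAUR, the urokinase receptor, rose from 16.4 and 16.6 FPKM to 60.9 and 56.6 FPKM. Contractile genes rose in 12 of 16 and fell in 1, with a median of 0.53. TPM1, a tropomyosin, rose from 1484 and 1429 FPKM to 3034 and 3025 FPKM, ACTA2, the smooth muscle actin, from 532 and 537 FPKM to 1042 and 1048 FPKM, MYL9, a myosin light chain, from 199 and 214 FPKM to 576 and 574 FPKM, and MYLK, its kinase, 3.80-fold. Exons of COL3A1, MGP, ELN, MFAP4, MMP9, MYLK, ACTA2 and TPM1 overlap other genes.

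Imprinted growth genes had the lowest median of all lists, at -1.19, with 8 of 11 lower, 6 of them 2-fold, and 2 higher. H19, the lncRNA expressed from the maternal allele (GRCh38 chr11:1995166-2004552, minus strand), fell from 995 and 1023 FPKM to 5.58 and 5.38 FPKM, 184-fold lower (log2 difference -7.28 ± 0.035, adjusted p = 9.37e-07 by limma). Its neighbour IGF2, a fetal growth factor of the paternal allele, fell from 132 and 134 FPKM to 5.22 and 4.90 FPKM. DLK1, a Notch-like ligand of progenitor cells, fell 74.6-fold from 163 and 166 FPKM to 2.50 and 1.91 FPKM, and DIO3, which is outside the list, inactivates thyroid hormone and lies in the same imprinted domain, fell from 74.2 and 72.5 FPKM to 2.24 and 2.64 FPKM. The growth inhibitor CDKN1C fell from 32.6 and 35.9 FPKM to 4.73 and 3.71 FPKM, and NNAT, a proteolipid of neuroendocrine tissue, fell 8.42-fold.

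HOX genes, which set position along the body axis, fell in 23 of 35 tested and rose in 3, with 8 falls of 2-fold and a median of -0.55. The widest falls were in the HOXD cluster. HOXD1 fell from 17.2 and 15.97 FPKM to 1.68 and 1.95 FPKM, HOXD3 from 9.14 and 8.48 FPKM to 1.01 FPKM in each library, HOXD4 from 14.5 and 15.7 FPKM to 2.99 and 3.24 FPKM and HOXD9 from 13.8 and 13.5 FPKM to 2.70 and 2.44 FPKM. HOXA2 fell from 4.68 and 4.45 FPKM to 0.543 and 0.872 FPKM. Exons of HOXD1 and HOXD3 overlap other genes, as do those of H19, IGF2, NNAT and DIO3.

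In the WNT pathway 19 of 32 genes fell, 9 of them 2-fold, and 8 rose, with a median of -0.32, beside 41.1% lower and 27.8% higher and a median of -0.10 over all genes tested. The ligands WNT4 and WNT11 fell, WNT4 from 5.84 and 5.27 FPKM to 0 in both libraries and WNT11 from 4.69 and 5.52 FPKM to 0.244 and 0 FPKM. Of the secreted modulators, SFRP2 fell from 371 and 379 FPKM to 23.5 and 23.3 FPKM, 15.98-fold lower, and DKK3 rose from 27.3 and 26.6 FPKM to 107 and 105 FPKM. In the TGF-beta family 13 of 36 genes rose and 15 fell, with a median of 0.03, so its split was near that of all genes. LEFTY2, an inhibitor of Nodal, was at 22.5 and 21.8 FPKM against 0 in both libraries. The BMP antagonist CHRDL1, which is outside this list, was at 13.2 and 12.7 FPKM against 0. TGFB3 fell from 22.8 and 24.4 FPKM to 4.24 and 3.38 FPKM, while INHBA, the activin A subunit, rose from 12.98 and 13.1 FPKM to 101 FPKM in each library. The receptor TGFBR2 rose 5.27-fold from 10.0 and 10.6 FPKM. Exons of WNT4, WNT11, DKK3, LEFTY2, INHBA and TGFB3 overlap other genes.

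Cell cycle genes rose. All 31 genes of mitosis were higher, 18 of them 2-fold, within a narrow range of 0.69 to 1.60 on the log2 scale and with a median of 1.11. Their summed level went from 145 and 152 FPKM to 354 and 362 FPKM. FOXM1, the transcription factor of G2/M genes, rose from 3.87 and 4.22 FPKM to 13.4 and 13.1 FPKM, AURKB, a kinase of chromosome segregation, from 7.22 and 8.58 FPKM to 23.5 and 22.2 FPKM, and BIRC5, survivin, from 4.11 and 3.31 FPKM to 11.2 and 11.5 FPKM. Of 32 DNA replication genes, 27 rose and 1 fell, with a median of 0.67. RRM2, of ribonucleotide reductase, rose from 8.01 and 7.57 FPKM to 29.0 and 26.9 FPKM, and TYMS, thymidylate synthase, 3.14-fold.

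Of 20 p53 targets and CDK inhibitors, 14 rose, 2 fell and 4 were not called, with a median of 0.45. The CDK inhibitor CDKN1C, counted above among the imprinted genes, fell 8.12-fold. CDKN2A, which encodes p16 and ARF, rose from 6.74 and 6.18 FPKM to 25.2 and 23.3 FPKM, MDM2, the p53 ligase, from 4.98 and 5.02 FPKM to 12.7 and 12.8 FPKM, and GADD45A from 11.9 and 10.8 FPKM to 27.4 and 25.5 FPKM. Bulk values cannot tell whether these rises and those of the mitosis genes were in the same cells. Exons of TYMS, FOXM1, CDKN2A and MDM2 overlap other genes.

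Of 22 AP-1 and immediate early genes, 10 were higher and 9 lower, beside 27.8% and 41.1% over all genes tested. FOSL1 rose from 2.15 and 1.51 FPKM to 19.01 and 19.1 FPKM, and FOS, its relative, fell from 23.9 and 23.8 FPKM to 4.999 and 4.73 FPKM, 4.90-fold lower. ATF3, a stress-induced repressor, rose 4.598-fold from 4.41 and 4.72 FPKM, and the orphan receptor NR4A1 went from 2.71 and 3.29 FPKM to 0 in both libraries. In the unfolded protein and amino acid stress response, 11 of 24 rose and 6 fell. EDEM1, of ER-associated degradation, rose from 7.79 and 7.67 FPKM to 18.2 FPKM in each library, while DDIT3 (CHOP) fell from 31.0 and 30.7 FPKM to 15.5 and 14.1 FPKM and PHGDH, of serine synthesis, fell from 51.4 and 52.7 FPKM to 23.4 and 23.2 FPKM. Exons of NR4A1, EDEM1 and DDIT3 overlap other genes.

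Metabolic genes were described by 2 lists, beside 27.8% higher and 41.1% lower over all genes tested. Of 28 genes of glycolysis and the hypoxia response, 22 rose, 4 of them 2-fold, 3 fell and 3 were not called, with a median of 0.36. PKM, pyruvate kinase, rose from 300.4 and 309 FPKM to 663 and 653 FPKM, SLC2A1, the glucose transporter GLUT1, from 11.7 and 12.1 FPKM to 36.5 and 34.5 FPKM, and ADM, a vasodilator peptide, from 7.59 and 7.48 FPKM to 55.4 and 56.9 FPKM. Of 31 genes of cholesterol and fatty acid synthesis, 18 rose, 4 fell and 9 were not called, with a median of 0.42. TM7SF2, a sterol reductase, fell from 9.68 and 9.16 FPKM to 1.66 and 2.60 FPKM.

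Calcium genes and transporters are named by the study for these cultures. Of 38 calcium genes tested of 60, 18 fell, 8 of them 2-fold, and 13 rose, with a median of -0.17. These shares lie near the 41.1% lower and 27.8% higher of all genes tested, so the count is no result about calcium genes. PTGER3, a prostaglandin E2 receptor, fell from 9.07 and 8.90 FPKM to 0.4003 and 0.355 FPKM, 23.8-fold lower. The growth factor PDGFD fell from 12.9 and 13.1 FPKM to 2.83 and 3.58 FPKM, the channel CACNA1G from 4.73 and 5.37 FPKM to 1.44 and 1.77 FPKM, the exchanger SLC8A2 from 7.08 and 7.66 FPKM to 2.02 and 1.71 FPKM and the phospholipase PLCD4 from 3.29 and 3.49 FPKM to 0.871 and 1.14 FPKM. ATP2B1, the pump that exports calcium, rose from 14.2 and 13.5 FPKM to 43.5 and 43.1 FPKM. Of 22 amino acid and peptide transporters, 11 rose, 5 fell and 6 were not called. SLC15A3, a lysosomal histidine and peptide transporter, was at 0 and 0.258 FPKM against 19.2 and 18.5 FPKM, and the taurine transporter SLC6A6 rose from 2.60 and 2.52 FPKM to 23.0 and 22.3 FPKM. SLC15A1, the peptide transporter of enterocytes, was listed at 0 throughout. Exons of TM7SF2, SLC2A1, PDGFD, CACNA1G, PLCD4, ATP2B1, SLC15A3 and SLC6A6 overlap other genes.

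Of 13 tight junction genes tested of 25, 5 rose and 3 fell, with a median of -0.01 that became 0.05 under both other scalings. CLDN1 rose from 1.87 and 1.74 FPKM to 26.1 and 24.9 FPKM, 14.2-fold, and CLDN15, a claudin that forms sodium pores in the gut, fell from 6.43 and 7.26 FPKM to 1.58 and 1.84 FPKM. TJP1, the scaffold ZO-1, was at 10.7 and 10.9 FPKM against 10.6 and 10.9 FPKM and was not called (log2 difference -0.01 ± 0.048, adjusted p = 0.918 by limma). OCLN was at 0 in 3 libraries and at 0.228 FPKM in the other and was not tested.

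Markers of cell identity were described by list, beside 27.8% higher and 41.1% lower over all genes tested. Bulk values cannot tell whether markers of different lists were in the same cells. Of 8 intestinal epithelial markers tested, 3 rose and 4 fell, with a median of -0.17 that turned to 0.02 under quantile normalization. KRT8 fell 1.96-fold and KRT18, its partner, fell from 235 and 252 FPKM to 109 and 100.1 FPKM. SOX9 fell from 14.1 and 13.6 FPKM to 3.66 and 3.699 FPKM, while LGR5, a marker of crypt stem cells, rose from 2.33 and 2.31 FPKM to 8.28 and 7.92 FPKM. Of 16 mesenchymal markers tested, 8 rose and 7 fell. CDH2, N-cadherin, rose from 65.2 and 64.6 FPKM to 149.9 and 152 FPKM, and TWIST1 fell from 21.95 and 20.9 FPKM to 8.03 and 7.29 FPKM. Neuronal markers fell in 8 of 10 tested and rose in 1. NEFM, a neurofilament, fell from 144 and 138 FPKM to 32.3 and 32.9 FPKM, STMN2 from 131 FPKM in both libraries to 64.8 and 62.5 FPKM and SNAP25, of synaptic vesicle fusion, from 19.3 and 20.2 FPKM to 6.67 and 6.76 FPKM. Among the widest falls of all genes, SYT4, a synaptotagmin, went from 33.5 and 32.3 FPKM to 1.40 and 1.35 FPKM, and CRABP1, which binds retinoic acid, from 24.3 and 27.5 FPKM to 0 and 0.448 FPKM. Exons of KRT8, KRT18, LGR5, CDH2, TWIST1, NEFM, SNAP25 and CRABP1 overlap other genes. Of the pluripotency markers, 3 were tested, with 1 higher, 1 lower and neither past 2-fold, and of the endothelial and immune cell markers CD68, of macrophages, was tested alone, at 0.308 and 0 FPKM against 1.11 and 1.83 FPKM.

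The cytokine effect with PM10 was then set beside the effect without PM10, between inflamed and normal hIECs, which rests on 4 other libraries. Of the 1812 genes called 2-fold with PM10, 1799 had the same sign without it and 1723 were called in the same direction. Across the 14206 genes of the test over 8 libraries described below, the 2 effects had a Pearson correlation of 0.91. This is a description over genes, which are not independent replicates. Examples of near-equal effects were CXCL10, at a log2 difference of 9.13 with and 9.03 without PM10, TAP1, at 4.61 and 4.63, and GBP5, at 6.95 and 7.01. None of these 3 passed the test of the difference.

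The difference of the 2 effects was tested as an interaction over all 8 libraries and 14206 genes. limma called 937 genes (6.60%), of which 300 had a more positive effect with PM10 (2.11%) and 637 a more negative one (4.48%). Of 853 genes called both in this test and for the cytokine effect with PM10, 607 had a wider effect in the same direction with PM10, 82 a narrower one and 164 the opposite sign. Genes were entered here by their call with PM10, which favours wider effects with PM10. The share of positive differences was 32.0% and became 45.7% of 992 genes under median centring and 46.6% of 912 genes under quantile normalization. The count rests on each library. The 2 normal libraries without PM10, on which every effect without PM10 rests, were unlike in mitochondrial share, at 17.02% and 24.19% of the FPKM sum. The 2 inflamed libraries without PM10 were at 16.94% and 16.95%. By the reading of depth used above, 1 FPKM was a mean depth of 6.11 and 4.67 in the normal pair. The part of these differences in the calls was not tested. Without either library of normal hIECs with PM10, 263 and 289 genes were called, without either inflamed library 274 and 285, and without either inflamed library with PM10 296 and 330, while without normal replicate 1 it was 1266 and without normal replicate 2 it was 1026.

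**Figure D4:**
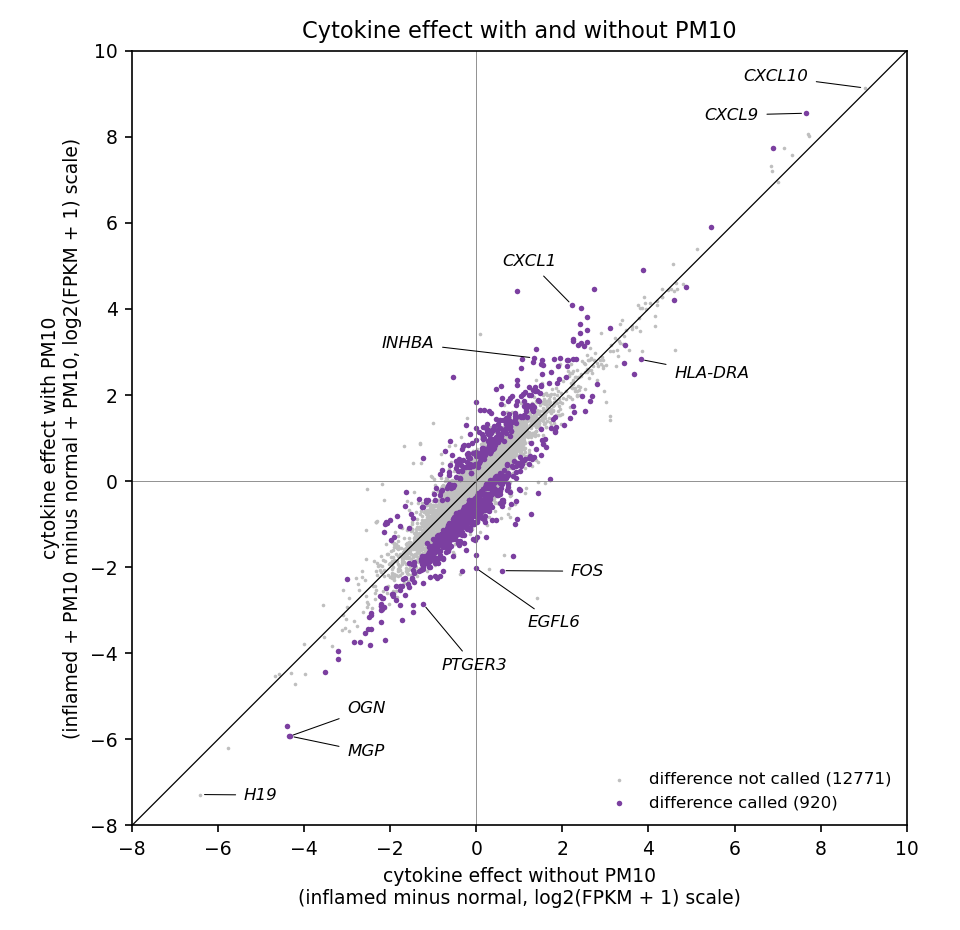
Each point is 1 of 13691 genes, with the cytokine effect without PM10 (inflamed minus normal hIECs, x axis) against the effect with PM10 (y axis), both on the log2(FPKM + 1) scale, and the diagonal marks equal effects. The 920 genes of this set whose effects differed by limma are purple. CXCL10 lies near the diagonal, FOS, EGFL6 and PTGER3 below it, and CXCL1 and INHBA above it. H19 lies below the diagonal too, with a difference of effects of -0.87 that was not called (adjusted p = 0.0577 by limma).

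Genes with a more positive effect in PM10-exposed hIECs included secreted factors and matrix genes. CXCL1 was at 0.425 and 0.391 FPKM in normal hIECs and 5.56 and 5.57 FPKM in inflamed hIECs without PM10, against 0 in both libraries and 16.4 and 15.8 FPKM with PM10. The difference of its effects was 1.87 ± 0.098 on the log2(FPKM + 1) scale (adjusted p = 4.34e-04 by limma). INHBA was at 21.7 and 17.2 FPKM in normal hIECs and 49.4 and 51.3 FPKM in inflamed hIECs without PM10, against 12.98 and 13.1 FPKM and 101 FPKM in each inflamed library with PM10. Its level was thus lower with PM10 in normal hIECs and higher with PM10 in inflamed hIECs. DKK3 was at 42.7 and 37.8 FPKM and 68.3 and 70.8 FPKM without PM10, against 27.3 and 26.6 FPKM and 107 and 105 FPKM with it. COL4A1 was at 134 and 114 FPKM and 313 and 321 FPKM without PM10, with a wider rise when PM10 was present.

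Genes with a more negative effect included FOS, which did not fall without PM10. FOS was at 16.8 and 21.2 FPKM in normal hIECs and 29.6 and 28.4 FPKM in inflamed hIECs, against 23.9 and 23.8 FPKM and 4.999 and 4.73 FPKM with PM10, a difference of effects of -2.68 ± 0.14 (adjusted p = 4.34e-04 by limma). EGFL6, a secreted matrix protein, was at 0.820 and 0.878 FPKM and 0.680 and 0.986 FPKM without PM10. With PM10 it was at 6.07 and 6.202 FPKM in normal hIECs and at 0.959 and 0.592 FPKM in inflamed hIECs, so the normal hIECs with PM10 stood alone. PTGER3 was at 5.29 and 5.99 FPKM and 2.04 and 1.61 FPKM without PM10, a narrower fall than with it. MGP, OGN and MFAP4 fell in both settings and further with PM10. MGP was at 451 and 452 FPKM in normal and 22.6 and 20.5 FPKM in inflamed hIECs, OGN at 120.0 and 103 FPKM and 4.42 and 4.61 FPKM, and MFAP4 at 1064 and 1212 FPKM and 257 and 260 FPKM.

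**Figure D5:**
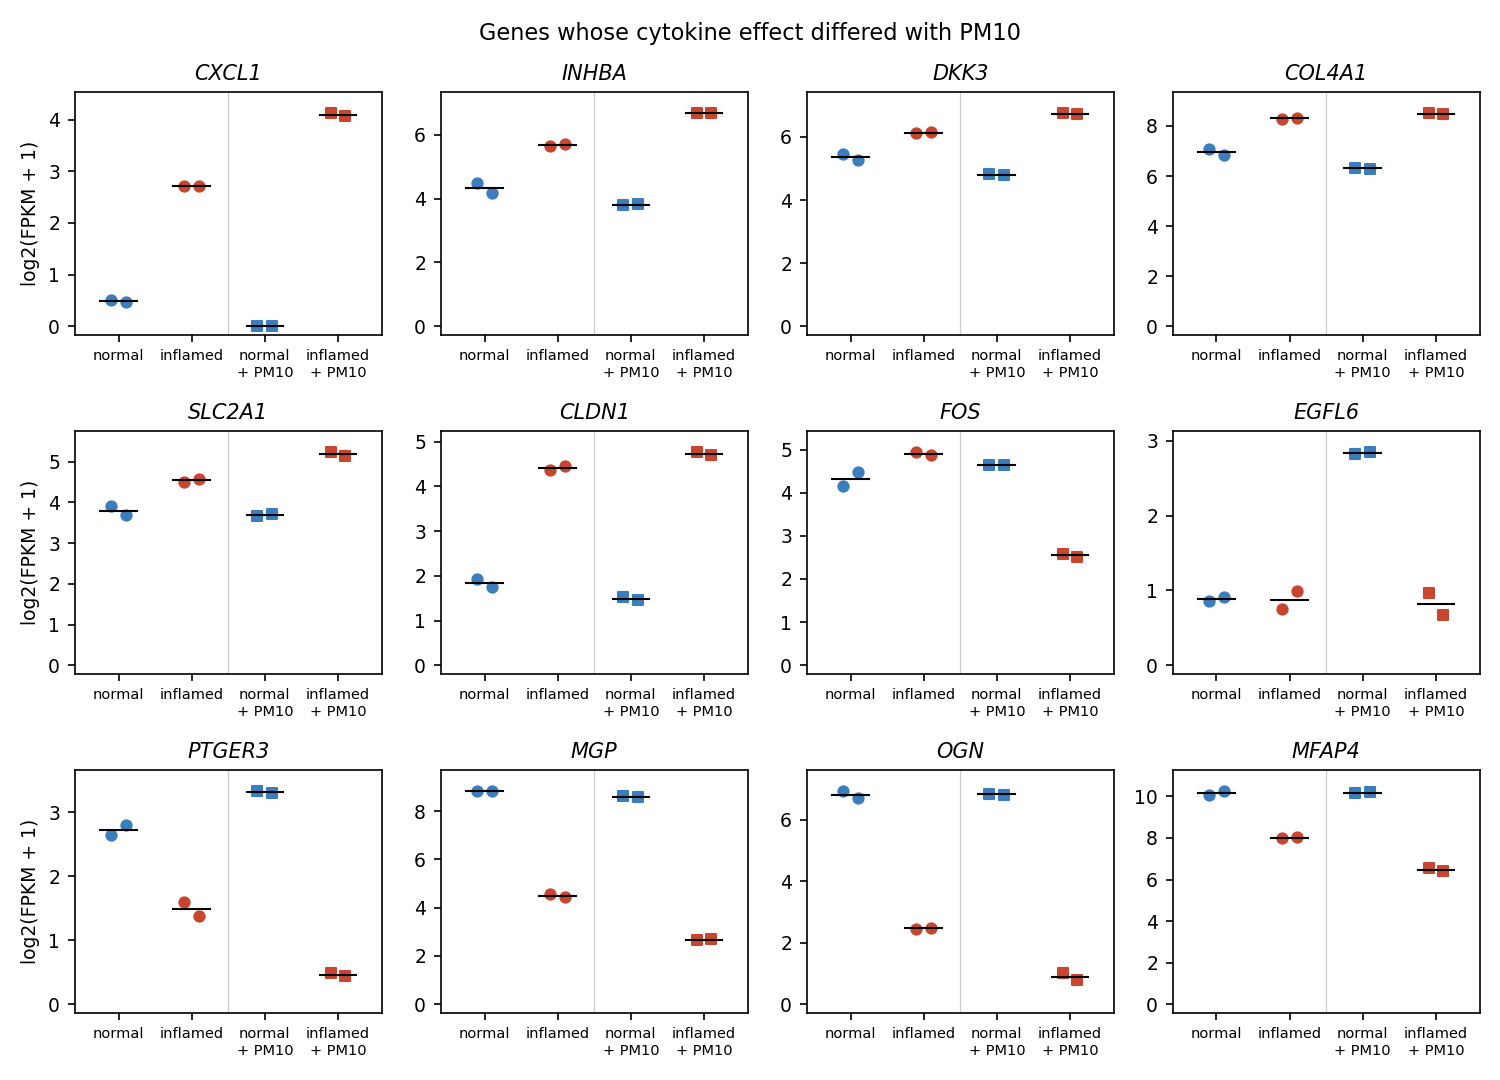
Level of 12 genes as log2(FPKM + 1) in all 8 libraries, 1 point per library with a bar at the group mean; circles are without and squares with PM10, blue is normal and red inflamed hIECs. In each panel the step from blue to red differs between the left and the right side; FOS steps up from 16.8 and 21.2 FPKM to 29.6 and 28.4 FPKM without PM10 and down from 23.9 and 23.8 FPKM to 4.999 and 4.73 FPKM with it.

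Counts of this difference by list are a description, with no test between lists, beside the 6.60% of all genes called. Of the 1812 genes called 2-fold with PM10, 435 were called in this test, a larger share than among all genes. Lists with many 2-fold genes are to be read beside that share, and whether any list exceeds it was not tested. Of the 15 chemokines tested, 7 had a more positive effect with PM10 and none a more negative one, and the list median was 3.81 with PM10 and 2.4 without it. Of 31 mitosis genes, 7 had a more positive effect and none a more negative one, with medians of 1.11 and 0.71. Of 34 collagens, 9 had a more negative effect and 2 a more positive one, and of 35 HOX genes 7 had a more negative effect and none a more positive one. No gene of MHC class I presentation, the immunoproteasome or DNA replication passed this test, with medians of 2.52 and 2.57, 2.00 and 2.25, and 0.67 and 0.55 with and without PM10. A missed threshold does not show that their effects were equal. HLA-DRA had a narrower rise with PM10, at 0.525 and 0.256 FPKM in normal and 17.9 and 19.1 FPKM in inflamed hIECs without it.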

How the data were processed

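RNA-seq of 8 libraries was used, 4 of them for the main comparison. The authors deposited FPKM per gene and library, made from poly-A selected libraries without strand information that were trimmed with Cutadapt, aligned to GRCh38 with HISAT2 and quantified with StringTie; the annotation release is not given in the sources used here. Of 60558 genes, 60261 had the same identifier in GENCODE release 44, which gave positions and exon overlaps. SOD2 had no position in it.

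Values were compared as log2(FPKM + 1), which understates changes of low genes, with limma 3.58.1 in R 4.3.3 and a variance trend. Genes needed 1 FPKM in 2 libraries, p-values were adjusted by Benjamini-Hochberg over all genes tested, and an adjusted p under 0.05 was a call. Folds are ratios of mean FPKM without a pseudocount, and none is given against a group at 0. The main fit held the 4 libraries with PM10 (2 residual and 2.65 prior degrees of freedom), and the interaction fit held all 8. In simulated data for the main comparison with 13691 genes, limma called 82 of 100 genes changed by 1 and 97 of 100 changed by 2 on the log2 scale, and 6 of its 185 calls were false. The simulation changed 200 genes, with independent noise and spreads shuffled among genes. It therefore does not give the rate of false calls in the data, where 68.8% of genes were called.

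The 42 gene lists were described by counts and medians, with no test. Members and lists were chosen with earlier results of these data known. Genes named are the 15 widest rises and falls among 2-fold calls with a mean of at least 5 FPKM, up to 5 called genes of each list, those the study names for 2D hIECs, and the 5 widest differences in each direction. CCL2, CXCL12, IFITM2, VIM, EPCAM and other markers were named after their values were seen, and some genes of the rule are not reported here. Promoters came from RefSeq (GRCh38.p14), with 9927 matched among the genes tested. Python 3.11.15, pandas 2.3.3 and matplotlib 3.10.9 were used.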

Additional observations from a re-analysis of the deposited data

Results flagged for a closer look

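The results listed here are those in which the cytokine effect with PM10 and the effect without PM10 differed by limma's interaction test over 8 libraries, which called 937 of 14206 genes. Values are the effect with PM10 minus the effect without PM10 on the log2(FPKM + 1) scale, each with an adjusted p under 0.05, and for genes at 0 in a group they depend on the pseudocount. Groups of 2 libraries are too small for a test of single outlying libraries. Of 57 genes named in the text whose effects differed, 22 were also called under all 14 alternatives, and the others in 4 or more of them. CD68 differed as well (1.24, adjusted p = 0.0319 by limma), but it is not among the 57 and its call was not followed under the alternatives.

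Among genes of the cytokine response, the effect with PM10 was the more positive for CXCL1 (1.87), CXCL9 (0.89), CCL5 (0.85), CCL7 (0.47), LIF (0.45), EBI3 (0.72), C3 (1.04), BIRC3 (0.51), PDCD1LG2 (0.78) and CD274 (0.45). It was the more negative for HLA-DRA (-0.99), HLA-DRB5 (-0.58), WARS (-0.56) and APOL2 (-0.33). Of the metal and oxidant response, MT2A (0.68) and MT1E (0.64) were more positive and NQO1 (-0.48) more negative. CXCL1, CCL5, HLA-DRB5 and WARS were called under all alternatives, and EBI3, APOL2 and NQO1 were among the genes called in 4 of the 14.

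In the matrix, COL4A1 (0.83), PLAUR (0.48) and LUM (0.32) had a more positive effect. More negative effects were those of MGP (-1.60), OGN (-1.59), MFAP4 (-1.57), ELN (-0.93), COL21A1 (-0.79), COL13A1 (-0.77), COL14A1 (-0.71), COL3A1 (-0.60) and MMP9 (-0.38). MMP9 rose in both settings, less so with PM10. The contractile gene ACTA2 (0.40) and the glucose transporter SLC2A1 (0.76) rose further with PM10, and so did the claudin CLDN1 (0.67), while CLDN15 (-0.75) fell further.

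Among signaling and identity genes, INHBA (1.52), DKK3 (1.16), FOSL1 (1.02), AURKB (0.81) and TGFBR2 (0.41) had more positive effects. More negative effects were those of FOS (-2.68), PTGER3 (-1.62), CHRDL1 (-1.34), DLK1 (-1.29), HOXD1 (-0.99), DIO3 (-0.93), CDKN1C (-0.91), HOXD9 (-0.79), NEFM (-0.75), TWIST1 (-0.73), SFRP2 (-0.72), ATF3 (-0.69), HOXD3 (-0.58), NNAT (-0.54) and SNAP25 (-0.47). EGFL6 (-1.998) followed the level of normal hIECs with PM10, as described.

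Wide differences were also called in 3 genes that overlap others and are uncertain for that reason. BLOC1S5-TXNDC5 (3.48), a readthrough gene, was at 9.17 and 14.7 FPKM in normal and 24.7 and 21.9 FPKM in inflamed hIECs, against 0 in both normal libraries with PM10 and 27.7 and 14.8 FPKM in the inflamed ones. BEST1 (-2.59), whose exons overlap those of FTH1, was at 8.30 and 11.98 FPKM and 22.8 and 15.4 FPKM without PM10, against 11.3 and 7.62 FPKM and 3.20 and 1.26 FPKM with it. PCDHGB7 (-2.02), which shares exons with 21 other genes, was at 2.21 and 0.859 FPKM and 4.19 and 5.64 FPKM without PM10, against 5.78 and 5.48 FPKM and 2.27 and 3.72 FPKM with it. Replicates of these 3 genes differed by more than those of the genes above. The fall of BEST1 and that of PCDHGB7 with PM10 lost their calls without either normal library with PM10 (adjusted p = 0.0983 and 0.0599 for BEST1 and 0.142 and 0.124 for PCDHGB7).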

How the results depend on the processing

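The alternatives were another pseudocount, another or no filter, other scalings, protein-coding genes alone, all 8 libraries in the fit, no variance trend, the replicate number as a block, and each library left out. No called difference of a gene named in the text changed sign under any of them. The balance of 2-fold calls did turn under quantile normalization (885 higher and 829 lower), as did the medians of tight junction genes and intestinal epithelial markers. With a pseudocount of 0.1, 2723 genes were called 2-fold, 1698 of them lower, and 2799 passed 2-fold without a test, against 1812, 1062 and 1825. With a filter at 5 FPKM, which tests fewer genes, 3682 genes were called lower, 1161 were called 2-fold, 614 of them lower, and 1165 passed 2-fold without a test. The other alternatives left the counts of the direct comparison within 1.5 times. Leaving out 1 library gave 7326 to 7593 calls, 2949 to 3102 higher and 4369 to 4625 lower, with 1764 to 1832 at 2-fold, 739 to 770 rises and 1025 to 1085 falls, and 1827 to 1858 genes past 2-fold without a test. Of the genes named, IFI30, STAT5B, IRF9, KYNU, BEST1 and PCDHGB7 lost their call in 2 of these fits each, in which the lone library is assumed to vary like the others.

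For the difference between the effects with and without PM10, 453 genes were more positive under median centring against 300, and the cause was not tested. Leaving out 1 library gave 263 to 1266 calls, 90 to 446 more positive and 159 to 897 more negative; the 6 fits without a library of normal hIECs with PM10 or of either inflamed group were those with 330 or fewer, and the 2 without a normal library gave 1026 and 1266. Filter at 5 FPKM gave 907 calls, no trend 804 and a pseudocount of 0.1 899.

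The replicate numbers share only a number, since the labels give no common culture or day, and the deviations of same-numbered libraries correlated at 0.00975. With the replicate block, 9148 genes were called, 1814 of them 2-fold, and 762 in the difference between the effects. Depth limits the genes near 0.2 FPKM, where a value of 0 and a low value cannot be told apart. A single gene tested by exact permutation of 2 libraries against 2 could not go below a two-sided p of 0.333.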
